A study of Mus musculus with 62 samples.

Results

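Dbp, Tef, Hlf and Nfil3 encode the clock output factors of the bZIP class, and their transcripts were followed in 62 RNA-seq libraries of the mouse suprachiasmatic nucleus (SCN), nucleus accumbens (NAc) and prefrontal cortex (PFC). The members were the rows of the deposited gene counts whose Ensembl identifiers carry these 4 symbols, and all 4 were present among the 11569 genes counted in the NAc and PFC and the 12047 genes counted in the SCN. The libraries came from 26 C57BL/6J mice, 1 punch of a region per library, with 19 SCN, 26 NAc and 17 PFC libraries; 17 mice gave both NAc and PFC, 19 both SCN and NAc, and 12 both SCN and PFC. Brains were taken at ZT6, which is 6 h after lights on, about 4 weeks after circadian rhythm disruption (CRD) by shifted light schedules or a control schedule had ended. The labels name CRD in adolescence, CRD in adulthood and matched controls, while the study's methods name only adolescent CRD and controls for the tissue collection. The labels do not give the exposure or the sex of any mouse, so each region pools control and CRD mice and neither CRD nor sex was compared.

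DBP, TEF and HLF form the proline and acidic amino acid-rich (PAR) family of basic leucine zipper factors, which activate transcription from D-box elements in promoters and enhancers. NFIL3, also called E4BP4, binds the same elements as a repressor. CLOCK and BMAL1 drive Dbp through E-boxes, and the REV-ERB and ROR receptors act on Nfil3, so the D-box factors are read as an output of the core clock that also feeds back on Period, Cryptochrome and nuclear receptor genes. The SCN is the central pacemaker of the brain, while the NAc and PFC carry local clocks in circuits for reward and for executive control.

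On GRCm38, Dbp (ENSMUSG00000059824) lies on the forward strand of chromosome 7 from 45705088 to 45710203, and Tef (ENSMUSG00000022389) on the forward strand of chromosome 15 from 81802421 to 81826863. Hlf (ENSMUSG00000003949) lies on the reverse strand of chromosome 11 from 90336536 to 90390895, and Nfil3 (ENSMUSG00000056749) on the reverse strand of chromosome 13 from 52967209 to 52981073. All 4 are protein-coding genes. The 3′ part of Dbp overlaps Sphk2 on the opposite strand by 737 bases, and the 5′ part of Tef overlaps the antisense gene Gm17597 by 193 bases. Whether counting used strand was not given in the sources used here, so reads in these overlaps cannot be assigned with certainty.

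The promoter windows of the 4 genes, 300 bases around each RefSeq start on GRCm38.p6, are shown because the members moved together in some regions and apart in others. Capitals mark matches to a motif searched on both strands, which were the E-box CACGTG, the D-box TTATGTAA or TTACGTAA, the CRE TGACGTCA and the ROR half-site AGGTCA.
Dbp, chr7:45704997-45705296, forward strand: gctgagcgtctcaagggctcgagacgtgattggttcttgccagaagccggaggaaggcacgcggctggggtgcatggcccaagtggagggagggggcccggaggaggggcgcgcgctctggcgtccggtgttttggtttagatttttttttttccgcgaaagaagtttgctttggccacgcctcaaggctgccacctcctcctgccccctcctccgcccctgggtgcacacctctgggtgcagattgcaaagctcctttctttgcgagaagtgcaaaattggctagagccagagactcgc
Tef start 1, chr15:81802423-81802722, forward strand: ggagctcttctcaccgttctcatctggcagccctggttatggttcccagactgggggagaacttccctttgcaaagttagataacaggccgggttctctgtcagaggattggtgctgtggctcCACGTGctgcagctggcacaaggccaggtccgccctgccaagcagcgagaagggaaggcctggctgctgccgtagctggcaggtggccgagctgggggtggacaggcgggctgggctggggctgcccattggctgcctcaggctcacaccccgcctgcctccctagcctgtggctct
Tef start 2, chr15:81811164-81811463, forward strand: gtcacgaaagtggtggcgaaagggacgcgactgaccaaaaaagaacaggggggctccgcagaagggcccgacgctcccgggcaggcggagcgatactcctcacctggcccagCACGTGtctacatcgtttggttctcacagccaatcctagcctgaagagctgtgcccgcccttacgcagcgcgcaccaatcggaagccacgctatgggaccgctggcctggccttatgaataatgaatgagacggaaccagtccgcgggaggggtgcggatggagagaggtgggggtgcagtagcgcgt
Hlf, chr11:90390868-90391167, reverse strand: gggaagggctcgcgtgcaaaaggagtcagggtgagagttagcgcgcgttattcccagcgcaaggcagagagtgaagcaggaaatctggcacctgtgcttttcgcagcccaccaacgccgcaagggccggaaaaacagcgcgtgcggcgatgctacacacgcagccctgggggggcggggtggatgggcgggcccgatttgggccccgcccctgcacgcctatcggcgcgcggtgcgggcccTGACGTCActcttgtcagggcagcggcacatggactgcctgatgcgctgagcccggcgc
Nfil3, chr13:52980990-52981289, reverse strand: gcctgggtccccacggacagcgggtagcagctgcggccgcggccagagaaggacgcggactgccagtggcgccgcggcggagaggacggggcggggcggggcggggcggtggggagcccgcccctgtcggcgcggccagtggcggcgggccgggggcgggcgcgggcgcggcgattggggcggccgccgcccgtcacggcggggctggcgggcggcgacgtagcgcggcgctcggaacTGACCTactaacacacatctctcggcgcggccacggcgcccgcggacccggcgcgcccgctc
Each Tef window held 1 E-box, at -127 and -138 from its start, and 7.15% of 32851 mouse promoter windows held this motif. The Hlf window held a CRE at -9, found in 1.79% of windows, and the Nfil3 window a ROR half-site at -12 on the reverse of the gene's strand, found in 16.3%. None of the letters searched occurred in the Dbp window, and the D-box, present in 1.06% of all windows, occurred in none of the 5. No match overlapped another. Of 13 clock genes with a window, Bhlhe41, Ciart, Cry1 and Per1 held an E-box and Per3 a D-box. The Nfil3 window was the richest in G and C, at 81.7%, against 60.3% in that of Dbp.

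Total counts per library were 16496666 to 35389742 in the SCN, 28879724 to 60009482 in the NAc and 31216225 to 50333579 in the PFC. The mitochondrial ribosomal RNA genes took a median of 38.2%, 49.4% and 46.6% of them. The punches carried markers of their regions. All 5 genes of a striatal projection neuron list were higher in NAc than PFC libraries, all 5 of a cortical glutamatergic list were lower, and 6 of 9 SCN neuron genes were measured in the SCN table alone. Within regions these lists varied. The summed level of the SCN neuron list ran from 89.9 to 464 CPM over the SCN libraries, and that of the cortical list from 8.16 to 417 CPM over the NAc libraries, with each region scaled on its own. The SCN libraries of mice J1199 and J1140 held 215 and 113 CPM of the striatal genes Ppp1r1b, Drd1 and Rgs9 together, against 15.8 to 33.0 CPM in the other 17. The SCN library labelled J1165 held 47.2 CPM of Xist, while the NAc and PFC libraries of that mouse held 0.617 and 0.390 CPM, so it may not be from the mouse its label names. SCN J1157 and SCN J1159 had the most counts on nuclear protein-coding genes among the SCN libraries, and NAc J1159 the largest share of ribosomal RNA-like genes in the NAc, 13.3% against a median of 2.52%. Results that rest on these libraries were also computed without them, and leaving out SCN J1157, SCN J1159 and NAc J1159 was chosen after seeing the data.

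Dbp, Tef, Hlf and Nfil3 did not share 1 regional order. Levels are in CPM, counts scaled to library size, from 1 scaling of all 62 libraries on the 11133 genes in both tables. Dbp, the member with the largest daily rhythm in most tissues, had a median of 73.6 CPM over the SCN libraries (44.9 to 90.5), 54.2 CPM over those of the NAc (41.1 to 92.8) and 29.0 CPM over those of the PFC (21.2 to 37.6). Every NAc and every SCN library lay above every PFC library, while the SCN and NAc overlapped over most of their ranges. Within the SCN the libraries left a gap between 61.0 and 71.5 CPM, with 8 below it and 11 above it. Tef, the second activator, had its highest median in the NAc, at 161 CPM (121 to 216), with 115 CPM in the PFC (95.6 to 129) and 99.9 CPM in the SCN (83.2 to 119). The SCN and NAc did not overlap for Tef. Hlf, the remaining activator, had medians of 89.8 CPM in NAc libraries (59.7 to 115), 79.9 CPM in PFC libraries (70.8 to 110) and 59.6 CPM in SCN libraries (35.0 to 90.7). The PFC range of Hlf lay inside that of the NAc, and the SCN reached lower than both. Nfil3, the repressor, was near the low end of what was counted, with medians of 3.08 CPM in the SCN (1.37 to 4.31), 2.59 CPM in the PFC (2.05 to 4.30) and 1.80 CPM in the NAc (0.778 to 2.88), from 28 to 228 reads per library. Its regions overlapped in every pair.

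**Figure D1:**
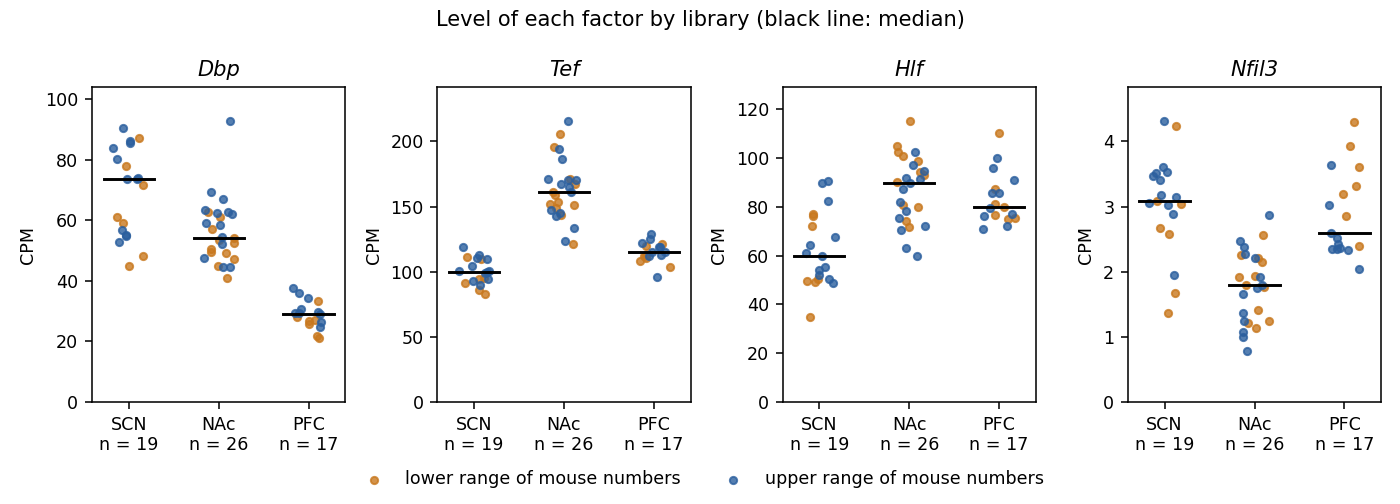
Level of Dbp, Tef, Hlf and Nfil3 in CPM (y axis, linear from 0) in each SCN, NAc and PFC library (x axis); points are libraries, coloured by the range of mouse numbers, and black lines are medians. Dbp falls from the SCN (median 73.6) through the NAc (54.2) to the PFC (29.0), Tef peaks in the NAc (161), Hlf is lowest in the SCN (59.6) and Nfil3 is lowest in the NAc (1.80).

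Per kilobase of exon, the order of the members changed between regions. The length was that of all annotated exons of a gene merged. Which transcripts were expressed was not determined, so ranks between genes depend on this length. In the SCN the median level per kilobase was highest for Dbp at 24.6 CPM, followed by Tef at 12.7, Hlf at 8.92 and Nfil3 at 1.52. In the NAc Tef led at 20.5 CPM per kilobase, ahead of Dbp at 18.1 and Hlf at 13.4, with Nfil3 at 0.888. In the PFC Tef led at 14.6 CPM per kilobase, followed by Hlf at 11.96, Dbp at 9.68 and Nfil3 at 1.28. Dbp thus led the activators in the SCN, stood between them in the NAc and was last in the PFC. Tef was the least variable member between libraries of a region. The SD of its log2 level was 0.15 in the SCN and 0.10 in the PFC, above that of only 6.87% and 9.78% of all genes, and 0.21 in the NAc, above that of 29.6%. Nfil3 was the most variable, with an SD of 0.41, 0.46 and 0.31 in the SCN, NAc and PFC, above those of 77.4%, 88.5% and 86.6% of genes. At the counts of Nfil3, reads themselves add to this spread.

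Between the NAc and PFC, Dbp and Tef were higher in the NAc, Nfil3 was higher in the PFC, and Hlf did not pass the test. A gene was called at an adjusted p under 0.05 by edgeR's quasi-likelihood test and a fold change of at least 1.2, which held for 45.4% of the 11569 genes, so that 3 of 4 called members is to be read against that share. Dbp was 1.95-fold higher in the NAc, a log2 difference of 0.96 (SE 0.077, adjusted p = 4.1e-15), in 17 of 17 mice with both regions. Its libraries did not overlap between the regions, which held for 9.06% of the 11133 genes, and its difference was larger in size than that of 90.5% of genes. Tef was 1.42-fold higher in the NAc, a log2 difference of 0.50 (SE 0.056, adjusted p = 8.2e-11), also in 17 of 17 mice. Hlf differed by 0.06 on the log2 scale (SE 0.065, adjusted p = 0.43), with 12 mice higher in the NAc and 5 higher in the PFC. Nfil3 was 1.61-fold lower in the NAc, a log2 difference of -0.69 (SE 0.12, adjusted p = 3.6e-06), in 15 of 17 mice. In bulk punches, fewer cells that express a gene and less RNA per cell cannot be told apart.

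The numbers of the mice leave a gap after J1021, with the next at J1140, and the libraries on either side of it are called the lower and upper range here. The labels do not say what the ranges mark. The NAc-PFC difference of Dbp was 0.98 within the lower range and 0.96 within the upper, and that of Tef was 0.51 and 0.49. The difference of Nfil3 was -0.90 in the lower range and -0.52 in the upper, a difference between ranges of 0.37 (SE 0.24, edgeR adjusted p = 0.36). Hlf was 0.14 higher in the NAc in the lower range and -0.02 in the upper (difference between ranges -0.16, SE 0.13, adjusted p = 0.48). In this test of the ranges edgeR called 0 of 11569 genes (0%), with 2279 genes at an unadjusted p under 0.05, and DESeq2 called 3. With the replicate block, which compares the regions within the 17 mice, the log2 differences were 0.999 for Dbp, 0.55 for Tef, 0.09 for Hlf and -0.88 for Nfil3.

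Markers of other cells moved with this comparison, and their part in it was not tested. All 6 oligodendrocyte genes were higher in the NAc (median log2 difference 2.09), 3 of 5 general neuron genes and 2 of 6 astrocyte genes were lower, and 0 of 5 microglia genes were called. The summed oligodendrocyte level was 526 to 1381 CPM in the NAc and 131 to 399 CPM in the PFC. The summed cortical level was 744 to 870 CPM in the PFC, and the summed striatal level 389 to 956 CPM in the NAc against 12.7 to 45.2 CPM in the PFC.

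The SCN was counted in a table of its own, so that table and region cannot be told apart in the comparisons that follow. Against the NAc, the SCN had more Dbp and Nfil3 and less Tef and Hlf, so all 4 members were called where 64.1% of 11133 genes were. Tef was 1.60-fold lower in the SCN (log2 difference -0.68, SE 0.059, edgeR adjusted p = 1.5e-14), in 19 of 19 mice and without overlap, as for 13.2% of genes. Hlf was 1.37-fold lower (-0.46, SE 0.088, adjusted p = 8.6e-06), in 18 of 19 mice. Nfil3 was 1.72-fold higher (0.78, SE 0.13, adjusted p = 3.2e-07), in 17 of 19 mice. Dbp was 1.25-fold higher (0.32, SE 0.084, adjusted p = 6.5e-04), in 13 of 19 mice. The call of Dbp depended on a few libraries: without SCN J1157 and SCN J1159 its difference was 0.26, as within the upper range, and in both cases it fell under the fold threshold.

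Against the PFC, the SCN had 2.39-fold more Dbp (log2 difference 1.26, SE 0.092, edgeR adjusted p = 1.7e-15), in 12 of 12 mice and without overlap, as for 20.7% of genes. Hlf was 1.34-fold lower in the SCN (-0.42, SE 0.093, adjusted p = 1.0e-04), in 10 of 12 mice. Tef differed by -0.20 (SE 0.044, adjusted p = 1.2e-04), lower in 11 of 12 mice, which is under the fold threshold. Nfil3 differed by 0.07 (SE 0.12, adjusted p = 0.61). The 2 called members stand beside 64.8% of genes called. Oligodendrocyte genes were higher in the SCN than in the PFC in 6 of 6, astrocyte genes were higher in 5 of 6 against each region, and general neuron genes were lower in 5 of 5 against the PFC and 4 of 5 against the NAc. Microglia genes were lower in the SCN in 4 of 5 against each region, and endothelium genes in 2 of 5 against the NAc and 3 of 5 against the PFC. The part of these cells in the comparisons was not tested. For Nfil3 the ranges of mouse numbers pointed opposite ways, with -0.36 (adjusted p = 0.14) in the lower range and 0.35 (adjusted p = 0.0085) in the upper range; the difference between them was not tested.

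**Figure D2:**
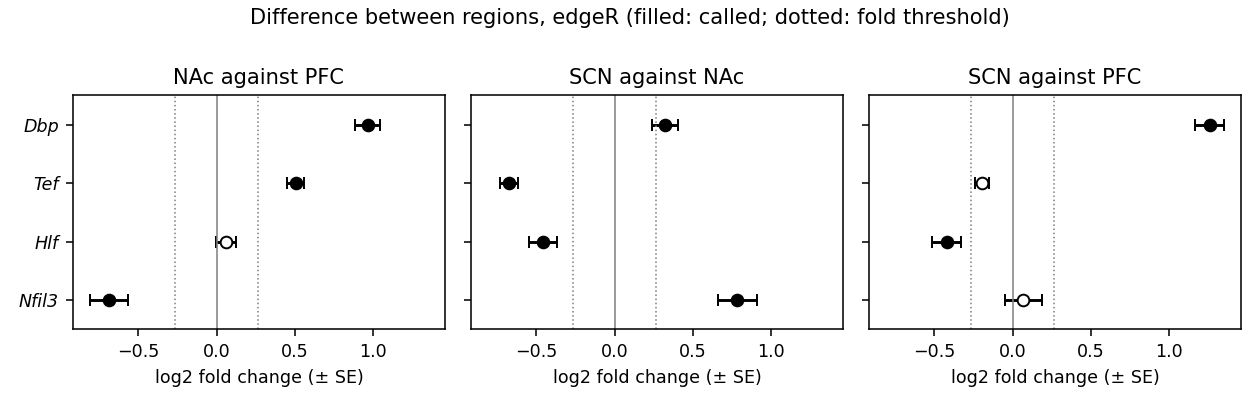
Log2 fold change with its SE (x axis) of Dbp, Tef, Hlf and Nfil3 (y axis) for the NAc against the PFC, the SCN against the NAc and the SCN against the PFC; filled points were called by edgeR and dotted lines mark a fold change of 1.2. Dbp was positive in all 3 comparisons (0.96, 0.32 and 1.26), and Nfil3 was negative in the first (-0.69) and positive in the second (0.78).

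Ratios within a library do not depend on how libraries or tables are scaled, and they show the shift toward Dbp in the SCN. They were taken as counts per exon length with 0.5 added to the count, and differences between regions of the same mouse were tested by flipping signs by mouse in a two-sided permutation test, adjusted over 18 comparisons. The ratio of Dbp to Tef had a median of 1.89 in SCN libraries (1.14 to 2.40), 0.936 in NAc libraries (0.636 to 1.13) and 0.653 in PFC libraries (0.480 to 0.883). The SCN did not overlap the other regions, although its lowest library, at 1.14, was close to the highest NAc library, at 1.13. The log2 ratio was 0.96 higher in the SCN than in the NAc (SD 0.35, n = 19, higher in 19 mice), 1.45 higher in the SCN than in the PFC (SD 0.38, n = 12, higher in 12 mice), and 0.45 higher in NAc than PFC (SD 0.22, n = 17, higher in 16 mice).

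The ratio of Dbp to Hlf had medians of 2.37 for SCN, 1.45 for NAc and 0.783 for PFC libraries. By counts per exon length, the PFC was thus the region where Hlf exceeded Dbp, in every library. The highest PFC ratio was 0.992, so this order depends on the exon lengths used. This log2 ratio was 0.90 higher in NAc than PFC (SD 0.28, n = 17), in 17 of 17 mice. The ratio of Tef to Hlf, the 2 activators of longer exon length, was 0.46 higher on the log2 scale in the NAc than in the PFC (SD 0.28), in 17 of 17 mice. Its differences between the SCN and the other regions did not pass the test, at -0.20 against the NAc (SD 0.51, permutation adjusted p = 0.12) and 0.20 against the PFC (SD 0.47, permutation adjusted p = 0.18).

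At ZT6, the ratios of activator to repressor transcripts had their highest medians in the NAc. Other times of day and proteins were not measured. The ratio of Tef to Nfil3 had a median of 22.7 for NAc, 10.4 for PFC and 8.45 for SCN libraries, and the ratio of Hlf to Nfil3 a median of 14.4, 9.54 and 6.17. Dbp to Nfil3 had a median of 20.7 in the NAc, 15.6 in the SCN and 6.76 in the PFC. Between NAc and PFC the log2 ratio to Nfil3 differed by 1.89 for Dbp (SD 0.85), 1.44 for Tef (SD 0.84) and 0.99 for Hlf (SD 0.80), higher in the NAc in 17, 17 and 16 of 17 mice. Between the SCN and NAc it differed by -1.38 for Tef (SD 0.80) and -1.18 for Hlf (SD 0.82), lower in the SCN in 19 and 18 of 19 mice, while the -0.42 for Dbp (SD 0.84) did not pass (permutation adjusted p = 0.052). Of the 18 differences, 14 passed, 6 of 6 between NAc and PFC.

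**Figure D3:**
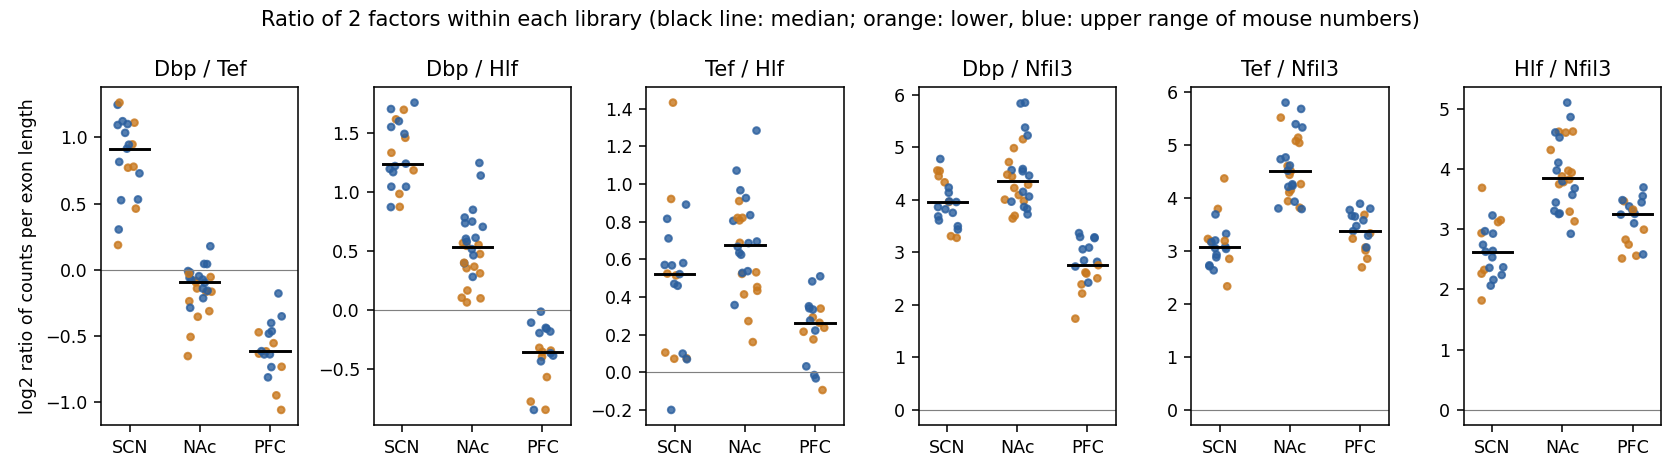
Log2 ratio of 2 members within each library, as counts per exon length (y axis), in the SCN, NAc and PFC (x axis); points are libraries, coloured by the range of mouse numbers, black lines are medians and the grey line marks equal levels. The ratios of Dbp to Tef and to Hlf step down from the SCN (medians 1.89 and 2.37 on the linear scale) to the PFC (0.653 and 0.783), and the ratios to Nfil3 are highest in the NAc.

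Across the libraries of 1 region, few pairs of members moved together. Relations were computed on log2 CPM with a prior count of 2, with permutation tests and Benjamini-Hochberg adjustment over all 18 pairs, and 3 passed. In the SCN, Dbp and Hlf rose together (Pearson's r = 0.66, permutation p = 0.0023, adjusted p = 0.021; Spearman's rho = 0.65, permutation p = 0.0036, adjusted p = 0.032, n = 19). Without the 2 libraries farthest from the median of Dbp, r was 0.54 (permutation adjusted p = 0.22). Within the lower and upper range of mouse numbers r was 0.72 (n = 7, exact permutation adjusted p = 0.32) and 0.56 (n = 12, permutation adjusted p = 0.35). The adjusted relation therefore did not hold in the smaller sets, although r stayed positive. Without SCN J1157 and SCN J1159 r was 0.59 (permutation adjusted p = 0.056), and without SCN J1199, SCN J1140 and SCN J1165 it was 0.72 (permutation adjusted p = 0.010).

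In the NAc, Dbp and Tef rose together (r = 0.73, permutation p = 3e-05, adjusted p = 5.4e-04; rho = 0.69, permutation p = 1.2e-04, adjusted p = 0.0022, n = 26). This relation was strong in the upper range of mouse numbers (r = 0.92, n = 14, permutation adjusted p = 1.8e-04) and did not pass in the lower range (r = 0.49, n = 12, permutation adjusted p = 0.38). Without the 2 farthest libraries r was 0.58 (permutation adjusted p = 0.053). Tef and Nfil3 ran in opposite directions in the NAc (r = -0.51, permutation p = 0.0073, adjusted p = 0.044; rho = -0.44, permutation p = 0.026, adjusted p = 0.16), with r of -0.65 and -0.44 within the ranges and -0.43 without the 2 farthest libraries. In the PFC, 0 of 6 pairs passed, and r ran from -0.30 for Dbp with Nfil3 to 0.33 for Dbp with Tef.

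**Figure D4:**
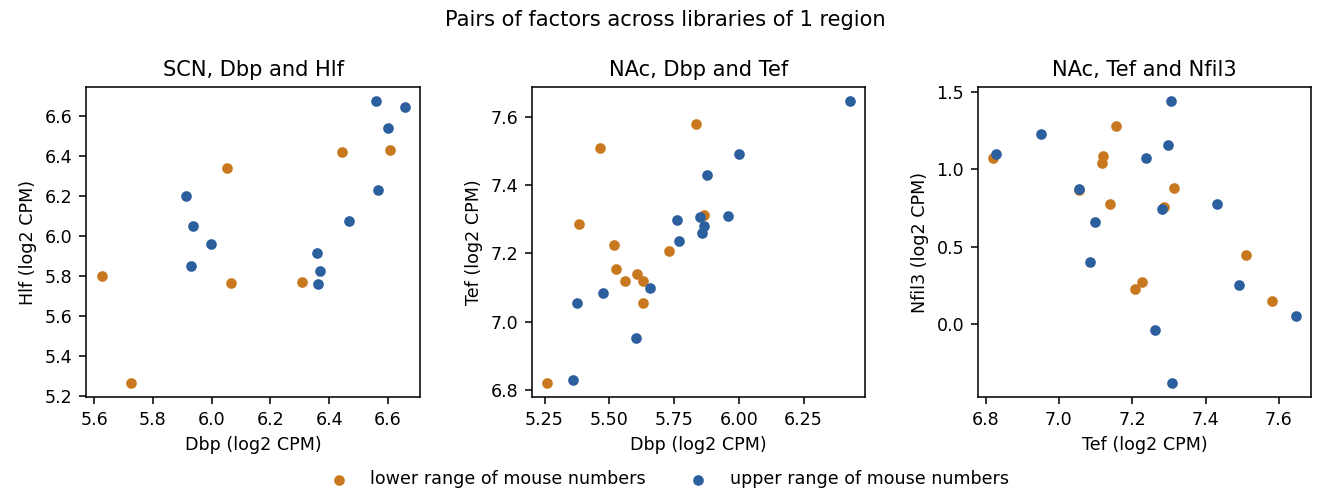
The 3 pairs of members whose correlation passed, in log2 CPM with each region scaled on its own; points are libraries, coloured by the range of mouse numbers. Dbp and Hlf rise together in the SCN (r = 0.66), Dbp and Tef rise together in the NAc (r = 0.73), and Nfil3 falls as Tef rises in the NAc (r = -0.51).

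Scores of cell type marker genes moved with these pairs, and the part of cell makeup was not tested. Such a score does not tell the number of cells from the level of these genes per cell. Over the SCN libraries the mean z-score of the 9 SCN neuron genes correlated with Dbp at r = 0.89, with Hlf at 0.63, with Nfil3 at 0.25 and with Tef at -0.02. Over the NAc libraries the score of the 5 striatal genes correlated with Dbp at 0.77, with Tef at 0.76 and with Hlf at 0.63, and that of the 5 cortical genes with Tef at -0.79 and with Nfil3 at 0.59. These are descriptions over libraries that share their scaling. After the score of the region's own neurons was removed, an alternative chosen after seeing the data, r was 0.27 for Dbp and Hlf in the SCN, 0.34 for Dbp and Tef in the NAc and -0.42 for Tef and Nfil3 in the NAc, and 0 of 18 pairs passed the adjusted permutation test. Of these 18, 3 had an unadjusted permutation p under 0.05.

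Against 15 clock genes, Dbp rose with 9 and Hlf with 10 of them across SCN libraries, while Tef and Nfil3 did not pass with any clock gene there. Of 180 relations in the 3 regions, 36 passed, 32 of them positive. In the SCN each relation that passed was positive, and 0 of 15 passed for Tef and for Nfil3. Npas2, Nr1d2 and Bhlhe40 passed with neither Dbp nor Hlf. Their r was -0.41, 0.46 and 0.26 with Dbp and 0.02, 0.09 and 0.26 with Hlf. Many other genes moved with Hlf as well: 20.5% of 12046 genes reached the smallest r that passed for it in either direction, against 5.82% for Dbp. In the NAc, 5, 3, 4 and 3 of 15 passed for Dbp, Tef, Hlf and Nfil3, where 12.2%, 8.98%, 23.8% and 20.8% of 11568 genes reached the smallest r that passed, so that the counts of Hlf and Nfil3 are near the share of all genes. In the PFC, 1 passed for Dbp and 1 for Hlf, where 0.372% and 0.0346% of 11568 genes reached the smallest r that passed. Each of these cutoffs is the r of the 1 gene that passed, so the shares do not set clock genes apart from others. Within the lower range of mouse numbers 2 of 180 passed and within the upper range 6, with fewer libraries in each; r within the ranges is therefore given as a size and not as a test. Without SCN J1199, SCN J1140 and SCN J1165, 33 passed, and without SCN J1157, SCN J1159 and NAc J1159, 29 passed. After the score of each region's own neurons was removed, 19 passed.

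Among the 15 clock genes, the strongest partner of Dbp in the SCN was Bhlhe41, a repressor of the CLOCK and BMAL1 complex (r = 0.88, permutation p = 1e-05, adjusted p = 1.8e-04; rho = 0.92, permutation p = 1e-05, adjusted p = 4.5e-04). The p of 1e-05 is the smallest that 100000 resamples can give. Dbp also rose with Per1, a repressor of its own activators (r = 0.87, rho = 0.86, permutation adjusted p = 1.8e-04 and 6e-04), and with Nr1d1, the receptor REV-ERBα (r = 0.86, rho = 0.89, permutation adjusted p = 1.8e-04 and 4.5e-04). Without the 2 libraries farthest in Dbp the 3 values of r were 0.85, 0.78 and 0.82. Within the lower and upper range of mouse numbers r was 0.89 and 0.86 for Bhlhe41, 0.97 and 0.75 for Per1, and 0.95 and 0.79 for Nr1d1. After the SCN neuron score was removed, r with Nr1d1 was 0.66 and still passed (permutation adjusted p = 0.034), while r with Bhlhe41 was 0.52 (permutation adjusted p = 0.13), r with Per1 was 0.60 (permutation adjusted p = 0.055) and r with Rora fell from 0.85 to 0.17.

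Hlf in the SCN rose with Per1 (r = 0.88, rho = 0.83, permutation adjusted p = 1.8e-04 and 6e-04), with Rorb, a retinoid-related orphan receptor (r = 0.85, rho = 0.81, permutation adjusted p = 1.8e-04 and 0.0012), and with Clock (r = 0.83, rho = 0.83, permutation adjusted p = 1.8e-04 and 9e-04). Without the 2 libraries farthest in Hlf, r was 0.81, 0.73 and 0.74. Within the ranges it was 0.85 and 0.89 for Per1, 0.94 and 0.76 for Rorb, and 0.88 and 0.75 for Clock. After the SCN neuron score was removed these were 0.79, 0.75 and 0.76, and each passed. Hlf in the SCN also correlated with the share of ribosomal RNA-like genes at -0.63. With the log2 count on nuclear protein-coding genes it correlated at 0.61. The part of these measures in the relations was not tested.

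Rorb, higher in the SCN than in the other regions, had relations of both signs. In the NAc it fell as Tef rose (r = -0.81, rho = -0.74, permutation adjusted p = 1.8e-04 and 4.5e-04), within both ranges (r = -0.79 and -0.84), without the 2 farthest libraries (r = -0.74), and after the striatal score was removed (r = -0.66, permutation adjusted p = 0.0075). Over the same libraries Tef correlated with the cortical score at -0.79. That score was not removed, and its part in the relation was not tested. With Dbp, Rorb correlated at 0.78 in the SCN (permutation adjusted p = 7.2e-04) and -0.55 in the NAc (permutation adjusted p = 0.024, and 0.15 for rho), and the difference between regions was not tested. Tef also rose with Cry1, a repressor partner of the Period proteins, in the NAc (r = 0.65, rho = 0.67, permutation adjusted p = 0.0037 and 0.0037), with r of 0.86 and 0.67 within the ranges and 0.73 without the 2 farthest libraries.

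Nfil3 in the NAc fell as Nr1d2, the receptor REV-ERBβ, rose (r = -0.54, rho = -0.56, permutation adjusted p = 0.024 and 0.027) and as Cry1 rose (r = -0.53, rho = -0.52, permutation adjusted p = 0.034 and 0.045). Within the ranges r was -0.74 and -0.56 for Nr1d2 and -0.79 and -0.58 for Cry1, and without the 2 farthest libraries it was -0.60 and -0.61. The remaining relation of Nfil3 that passed in the NAc was positive, with Rorb (r = 0.57). Nfil3 in the NAc also correlated with the general neuron score at 0.66 and with the share of mitochondrial ribosomal RNA at -0.63. The part of these in the 3 relations was not tested. In the PFC the relation of Nfil3 with Nr1d2 was -0.57 and did not pass (permutation adjusted p = 0.084).

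Hlf and Rora, the receptor RORα, rose together in each of the regions. Their r was 0.79 in the SCN (rho = 0.81, permutation adjusted p = 7.2e-04 and 0.0016), 0.67 in the NAc (rho = 0.67, permutation adjusted p = 0.0031 and 0.0045) and 0.86 in the PFC (rho = 0.77, permutation adjusted p = 1.8e-04 and 0.0055). With the 2 farthest libraries left out, r was 0.65, 0.60 and 0.71, and within the lower and upper ranges 0.94 and 0.58, 0.72 and 0.58, and 0.88 and 0.85. With the score of each region's own neurons removed, r was 0.68, 0.74 and 0.91, and each passed. Among 8523 genes with at least 5 CPM in every region, Rora ranked second in likeness to Hlf by the mean Fisher z over the regions, after Pde7b. In the PFC Hlf also correlated with the endothelium score at 0.71 and with the share of ribosomal RNA-like genes at -0.67, and their part in the relation was not tested.

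**Figure D5:**
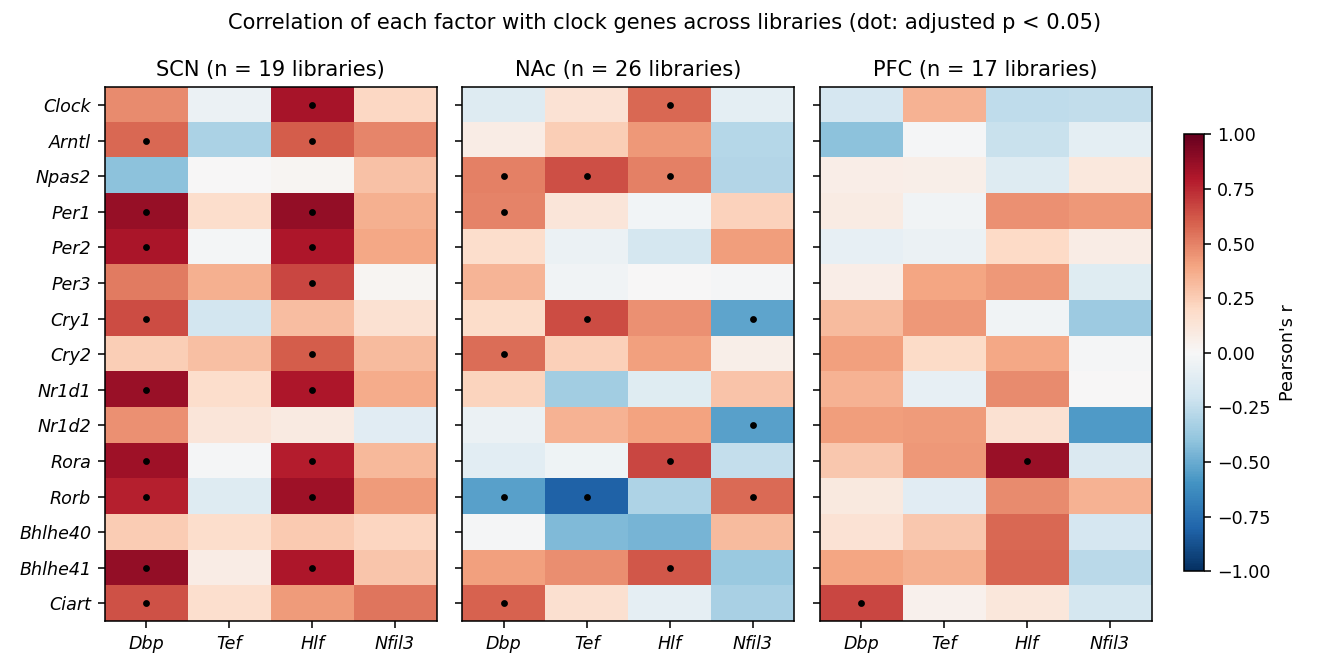
Pearson's r of Dbp, Tef, Hlf and Nfil3 (x axis) with 15 clock genes (y axis) over the libraries of the SCN, NAc and PFC; colour gives r from -1 to 1 and dots mark an adjusted p under 0.05. In the SCN, Dbp carries 9 dots and Hlf 10, all positive, and Tef and Nfil3 carry 0, while the PFC holds 1 dot for Dbp and 1 for Hlf.

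By the same measure the genes most like Dbp were Prkd1, Hmgb3, Tgfa, Bhlhe41 and Mxi1, with a mean z of 0.83 to 0.72; Per1 ranked 9 and Nr1d1 ranked 11. The genes most like Tef were Egln1, Cldn5, Mapk4, St6galnac6 and Rnf166. Cldn5, the tight junction protein of brain endothelium, correlated with Tef at 0.62 over SCN, 0.67 over NAc and 0.69 over PFC libraries. The score of 5 endothelium genes correlated with Tef at 0.60, 0.46 and 0.35 in the same order. Cldn5 is among these 5 genes, so the score does not stand apart from it. After Pde7b and Rora, the genes most like Hlf were Flrt3, Tab2 and Thsd7a. For Nfil3 they were Scg2, Rrp1, Prkcsh, Edf1 and Ccdc124. Among the members, Tef ranked 45 and Hlf 98 in likeness to Dbp, while Nfil3 was not compared because its level was under 5 CPM. These are descriptions over 19, 26 and 17 libraries that share depth and cell makeup within a region.

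Levels of a member in different regions of the same mouse were not detectably related. Of 12 relations of a member with itself between regions of the same mouse, 0 passed, and the lowest unadjusted permutation p was 0.11 for Pearson's r and 0.056 for Spearman's rho. Pearson's r ran from -0.48 for Nfil3 between the SCN and PFC (rho = -0.49, permutation p = 0.11 for each, adjusted p = 0.59 and 0.67, n = 12) to 0.44 for Tef between the same regions (rho = 0.33, permutation p = 0.15 and 0.30, adjusted p = 0.59 and 0.68). Without the 2 farthest mice these were -0.54 and 0.30, and in the 8 mice of the upper range 0.13 and 0.59. Without SCN J1199, SCN J1140 and SCN J1165 they were -0.47 and 0.22 (n = 11). These relations rest on 12 to 19 mice.

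The other genes of the clock split between the NAc and PFC. Of 15 clock genes, 4 were higher and 4 lower in the NAc, with a median log2 difference of -0.01 against 0.02 over all genes. Bhlhe41 was 1.98-fold higher, Cry1 1.72-fold, Npas2, the CLOCK paralog, 1.46-fold and Per1 1.23-fold. Bhlhe40 was 2.89-fold lower, Arntl, which encodes BMAL1, 1.44-fold, Rora 1.27-fold and Nr1d1 1.24-fold lower. Dbp and Arntl, a driver of it, thus differed in opposite directions, in 17 of 17 mice each. Between the SCN and NAc, 8 clock genes were higher in the SCN and 2 lower, and between the SCN and PFC 7 were higher and 5 lower. The 8, 10 and 12 of 15 called stand beside 45.4%, 64.1% and 64.8% of all genes called, and the first 2 counts are near those shares. Npas2 was 8.43-fold lower in the SCN than in the NAc, while Rora was 3.15-fold and Per2 2.37-fold higher.

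Of 11 genes known as targets of the PAR factors, 4 were higher and 2 lower in the NAc than in the PFC (median log2 difference 0.17). Pdxk, the pyridoxal kinase of vitamin B6 metabolism, was 1.78-fold higher, and Por, the electron donor of cytochrome P450 enzymes, 1.33-fold higher, beside Cry1 and Per1. In the SCN, 7 targets were higher and 1 lower than in the NAc (median 0.35), and 8 higher and 1 lower than in the PFC (median 0.71). The 6, 8 and 9 of 11 called stand beside the same shares of all genes. Usp2, a ubiquitin protease, was the lower one, 2.91-fold against the NAc and 2.63-fold against the PFC. Most of these genes are clock genes as well, so the lists share members.

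Of the C/EBP factors, bZIP proteins that bind related sites, 3 of 4 were measured in every region. Cebpb was 1.60-fold lower in the NAc than in the PFC and 2.26-fold higher in the SCN than in the NAc, the same directions as Nfil3, and Cebpa and Cebpg were not called between the NAc and PFC. In the SCN, 2 of the 3 were higher than in the NAc and 1 than in the PFC, where Nfil3 was not called. These SCN counts stand beside 64.1% and 64.8% of all genes called. Of 8 activity-regulated genes, 5 were lower in the NAc than in the PFC and 0 higher, Fos by 2.52-fold. Of 6 genes that respond to glucocorticoids, 3 were higher in the NAc and 1 lower. Fkbp5, a co-chaperone of the glucocorticoid receptor, was 2.30-fold higher. The counts of these lists stand beside 45.4% of all genes called between the NAc and PFC.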

How the data were processed

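RNA-seq was made from punches of single mice (SmartSeq HT kit, paired-end reads of 75 bases). The authors aligned reads with HISAT2 to GRCm38, used the union mode of HTSeq, and deposited raw counts per gene after removing genes at low CPM and those on the Y chromosome; FastQC 0.11.7 is named in the submitters' processing notes, and the strand setting is not given in the sources used here. The NAc and PFC share 1 table and the SCN has its own.

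Counts were tested with edgeR 4.0.16 (R 4.3.3) by quasi-likelihood with TMM scaling over all genes, Benjamini-Hochberg adjustment, and a gene was called where the adjusted p was under 0.05 and the fold 1.2 or more. DESeq2 1.42.0 was an alternative, as were other scalings, ranges of mouse numbers, left-out libraries and the replicate block. SCN comparisons used the 11133 genes in both tables. Correlations used 100000 resamples (exact for 8 or fewer libraries). Symbols came from GENCODE annotation of GRCm38, which named 11545 of 11569 and 12020 of 12047 rows.

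On simulated counts for the NAc and PFC comparison, edgeR recovered 196 of 200 genes changed 2-fold, with 8 false calls. Smaller changes were not simulated. Libraries with the same mouse number were taken as the same animal, as labelled, with SCN J1165 in doubt; deviations of same-numbered NAc and PFC libraries correlated at -0.449 to 0.272. No libraries were duplicates by a chi-square test of counts. The members and gene lists were chosen with earlier results of these data known. Named genes were the members, the clock genes with the strongest relations, the genes of highest likeness and called list genes. CRD and sex were not tested because the labels do not assign them. Libraries of 1 region are separate animals.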

Additional observations from a re-analysis of the deposited data

How the results depend on the processing

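Of 136 alternative values of the members' fold changes, 130 kept their direction and call; of 574 for correlations, 429 did, 129 lost the call and 15 reversed. The replicate block changed no call of a member (NAc-PFC differences 0.999 for Dbp, 0.55 for Tef, 0.09 for Hlf and -0.88 for Nfil3). The test of the ranges called 3 genes with DESeq2 and 1 with the replicate block, where Dbp turned to 0.024. Among member pairs, 0 passed in the lower range, 1 in the upper, 0 without the 2 farthest libraries, 0 with the region's own neuron score removed and 1 without the first principal component; of the clock relations 2, 6 and 19 passed in the lower range, the upper range and with that score removed. Of the ratios, 8 passed in the lower range. The SCN and PFC share 4 mice there, too few for any of their sign-flip tests to pass. In the lower range, Nfil3 turned to -0.36 for the SCN against the PFC, Tef and Hlf to r = -0.289 in the SCN, Dbp and Nfil3 to 0.108 in the PFC, Tef/Hlf to 0.017 for the SCN against the NAc and Tef/Nfil3 to 0.39 for the SCN against the PFC. In the upper range, Hlf turned to -0.016 for the NAc against the PFC, Tef and Nfil3 to r = 0.0733 in the SCN and 0.0252 in the PFC, and Nfil3 between the SCN and PFC to 0.134. Without the 2 farthest libraries, SCN pairs turned to -0.105 (Tef and Hlf), 0.0637 (Tef and Nfil3) and -0.174 (Hlf and Nfil3). With the neuron score removed, NAc Dbp and Hlf turned to -0.391, NAc Tef and Hlf to -0.272, SCN Dbp and Cry1 to -0.121 and NAc Dbp and Npas2 to -0.148; without the first component NAc Dbp and Hlf turned to -0.000569, Tef and Hlf to -0.301 and Hlf and Nfil3 to 0.276. The cause was not tested. Nfil3 was not tested with a minimum mean of 5 CPM. Reads of Nfil3, 28 to 228 per library, limit its precision.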
